A study of Mus musculus with 4 samples.

Results

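Untreated control peritoneal macrophages were compared between morning and evening. The comparison covers the 2 control libraries, collected at zeitgeber time (ZT) 2 and ZT14, and every gene whose mean over both libraries exceeded 1 CPM (read counts scaled to library size), which were 12465 of the 15298 genes listed. Values are given as CPM at ZT2 and at ZT14, followed by the log2 ratio of ZT2 to ZT14 after adding 0.1 CPM to each, so that a positive ratio means higher at ZT2 and a negative ratio higher at ZT14. The study sequenced RNA of macrophages from mice with and without microcurrent stimulation (MCS) of the abdomen, in 4 libraries with 1 library for each treatment and time. The cells came from female BALB/c mice, 6 weeks old per the study's methods, and were sorted by flow cytometry as CD11b+ F4/80+ Ly6G- cells from the peritoneal cavity. The labels describe the control samples as untreated, while the methods state that control mice were anaesthetized with isoflurane and fitted with electrode pads in the same way as MCS mice but received no current. ZT2 samples were taken right after this procedure and ZT14 samples 12 h later, so time of day and time since the procedure cannot be told apart in these libraries. How many mice contributed to each library is unknown here. With 1 library per time point there is no replicate check and no test between ZT2 and ZT14 within control. The 95% intervals printed with ratios cover counting error only, so they compare these libraries and not mice. Genes were measured as sums over sorted cells, in which fewer cells of a type and less RNA per cell cannot be told apart.

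Mammalian cells keep time with a transcriptional feedback loop. The activators ARNTL (BMAL1) and CLOCK bind E-box sequences and drive the genes of their own repressors, the period and cryptochrome proteins, and of the nuclear receptors REV-ERBalpha and REV-ERBbeta (Nr1d1 and Nr1d2), which in turn repress Arntl and Nfil3 through ROR/REV-ERB elements. DBP and TEF, transcription factors of the PAR bZIP family, act on D-box sequences, and NFIL3 opposes them at the same sites. Peritoneal macrophages carry such a clock, and in macrophages it is known to gate cytokine and chemokine expression, phagocytosis and lipid handling over the day.

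The 4 libraries held 8658191 reads (control ZT2), 9217493 (control ZT14), 8365590 (MCS ZT2) and 9953243 (MCS ZT14), recovered as whole numbers from the CPM. A single read equaled 0.115 CPM at ZT2 and 0.11 CPM at ZT14 in control, and a gene without reads could be present at up to 3 reads, or 0.346 and 0.33 CPM. The median log2 ratio over the 12465 genes was -0.0028, and 49.5% of them were above 0. The middle 95% of genes lay between -0.76 and 0.99. A log2 ratio beyond 1, a change of more than 2-fold, was reached by 450 genes, or 3.61%, with 302 genes (2.42%) higher at ZT2 and 148 genes (1.19%) higher at ZT14. For 393 of the 450 the counting interval excluded 0, and for 103 it lay wholly beyond 1, comprising 60 genes higher at ZT2 and 43 higher at ZT14. Among the 8636 genes above 10 CPM, where counting error is smaller, 642 passed a log2 ratio of 0.5 (7.43%), with 325 (3.76%) higher at ZT2 and 317 (3.67%) higher at ZT14. The genes with the most reads differed little, as the plot of all genes shows. Rn45s, the ribosomal RNA precursor left after rRNA depletion, had 61770 and 66044 CPM. Fn1, which encodes fibronectin, had 61551 and 56779 CPM, and Lyz2, which encodes lysozyme, had 17454 and 17605 CPM.

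**Figure D1:**
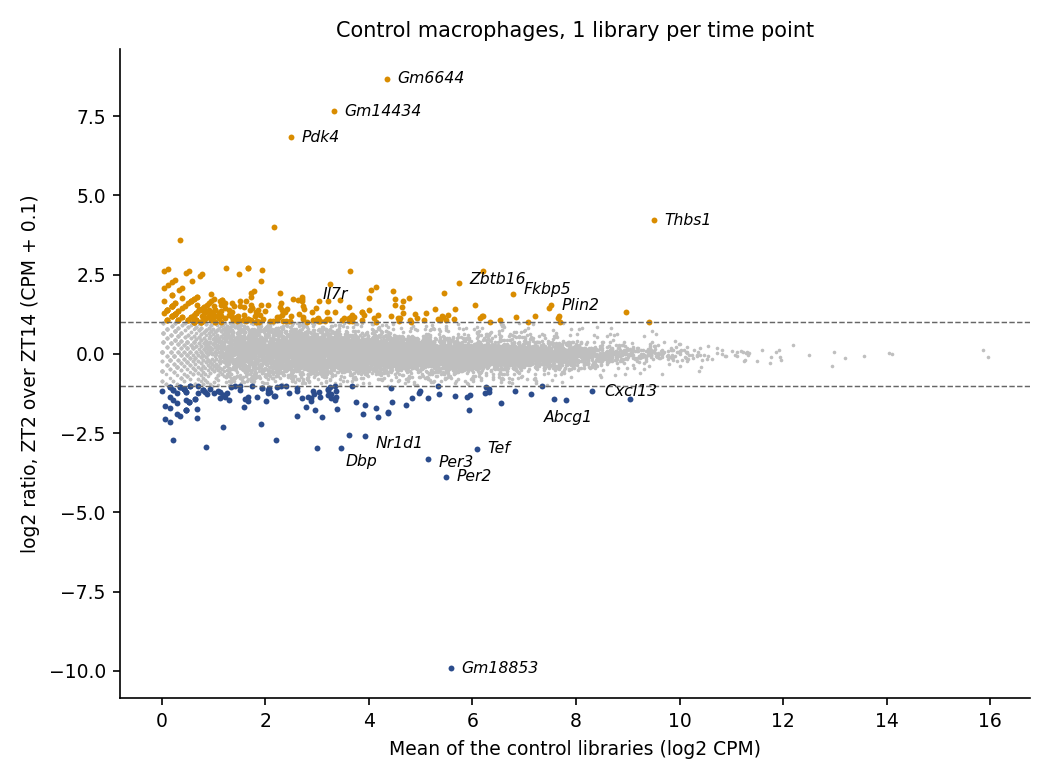
Log2 ratio of ZT2 to ZT14 in control (y axis, CPM + 0.1) against the mean of both control libraries (x axis, log2 CPM) for 12465 genes above 1 CPM. Orange points are the 302 genes above 1 and blue points the 148 genes below -1 (dashed lines); Thbs1 stands highest among abundant genes and Per2 lowest among named clock genes, while Gm6644, Gm14434 and Gm18853 have near-identical copies and no difference once copies are summed.

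Among the clock genes, most repressors and the D-box activators were higher at ZT14, and Arntl, Nfil3 and Per1 were higher at ZT2. Per2, of the negative arm, had 5.66 CPM in the morning library against 84.6 CPM in the evening library, a 14.9-fold difference (log2 ratio -3.88, interval -4.35 to -3.48). Per3 had 6.35 and 64.4 CPM (-3.32). The cryptochrome genes followed the same direction, with Cry1 at 8.2 and 27 CPM (-1.71) and Cry2 at 6.24 and 23.4 CPM (-1.89). Per1 went the other way, with 157 and 70.9 CPM (1.15, interval 1.01 to 1.28), so the period genes did not share a direction. Ciart, which encodes another repressor of the loop, was near the detection limit with 0.693 and 1.54 CPM (-1.05), and its interval from -2.82 to 0.32 included 0.

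The REV-ERB receptor genes were also higher at ZT14. Nr1d1 had 4.27 and 26 CPM (-2.58, interval -3.15 to -2.10), and Nr1d2 had 27.8 and 94.3 CPM (-1.76). The D-box activators behaved alike, with Dbp at 2.43 and 19.6 CPM (-2.96) and Tef at 15 and 121 CPM (-3.00). Opposite to them stood Nfil3, the D-box repressor, with 69.2 and 18.2 CPM (1.92, interval 1.67 to 2.18), and Arntl with 32.3 and 14.7 CPM (1.13, interval 0.83 to 1.44). Arntl and Nfil3 were high in the library in which Nr1d1 and Nr1d2 were low, and whether these differences are linked was not tested. The DEC factor genes, whose proteins compete at E-boxes, were higher at ZT14, with Bhlhe40 at 82.6 and 200 CPM (-1.28) and Bhlhe41 at 77.7 and 132 CPM (-0.76).

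Other clock components stayed within a log2 ratio of 1 or were scarcely detected. Clock had 93.5 and 88.6 CPM (0.08, interval -0.06 to 0.22). Rora, which encodes the activator at ROR/REV-ERB elements, had 21 and 16.5 CPM (0.35), and its interval excluded 0. Arntl2 had 1.27 and 1.87 CPM, Hlf 0.231 and 0.33 CPM, and Npas2 0.115 and 0 CPM, all with intervals that included 0. Of 13 genes above 1 CPM for kinases, ligases and other modifiers of clock proteins, none passed a log2 ratio of 1. Their median was -0.14, and 5 of the 13 intervals lay wholly below 0. The most divergent modifier gene above 10 CPM was Ppargc1b, a coactivator gene, with 9.59 and 16.4 CPM (-0.77). The kinase gene Csnk1e had 22.4 and 27.8 CPM (-0.31). Among clock genes the differences beyond 1 thus lay in core and output genes of the loop. For modifier genes the count was near the share of all genes beyond 1, which was 3.61%.

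**Figure D2:**
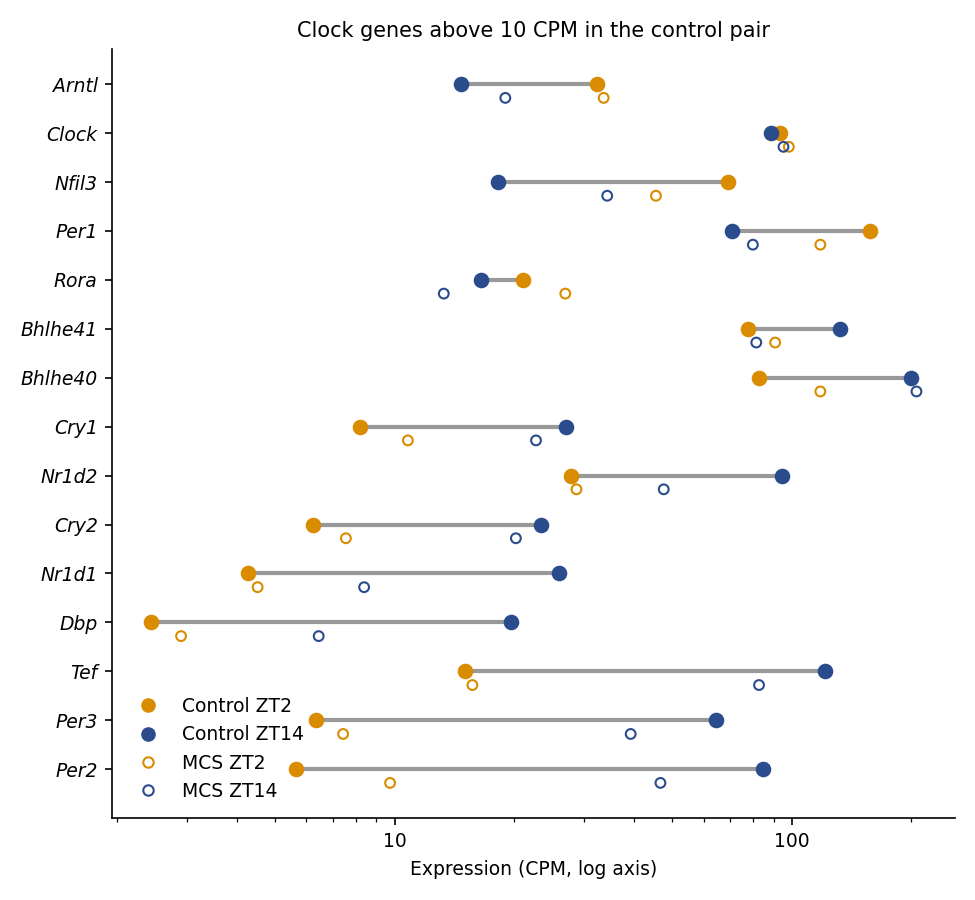
Expression of 15 clock genes above 10 CPM (x axis, CPM on a log scale) in each of the 4 libraries. Filled points are control and open points MCS, orange ZT2 and blue ZT14, with 1 library per point; Arntl, Nfil3 and Per1 are higher at ZT2 in both pairs and the genes from Bhlhe40 down to Per2 are higher at ZT14 in both pairs.

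Promoter windows are shown for clock genes on both sides of the comparison, because the known elements of the loop can be read in them. Windows of 250 bases before to 50 bases after the transcription start were taken from RefSeq on GRCm38.p6, and 28 of 35 clock genes matched an entry, in 37 windows. The following elements were searched on both strands. The E-box CACGTG was held by 7.15% of all 32851 promoter windows, the core TAGGTCA of the ROR/REV-ERB element by 2.61%, and the D-box as TTATGTAA or TTACGTAA by 1.06%. A match is a description of these letters and no evidence of binding. Capitals mark the matches. TAGGTCA was in the windows of 2 clock genes, Arntl at chr7:113207261-113207560 on the plus strand, at base 281, and Nfil3 at chr13:52980990-52981289 on the minus strand, at base 239, where it reads TGACCTA on the opposite strand. The other Arntl window (chr7:113207215-113207514) held no match. Arntl and Nfil3 are 2 of the 3 clock genes above a log2 ratio of 1, the other being Per1.
Arntl: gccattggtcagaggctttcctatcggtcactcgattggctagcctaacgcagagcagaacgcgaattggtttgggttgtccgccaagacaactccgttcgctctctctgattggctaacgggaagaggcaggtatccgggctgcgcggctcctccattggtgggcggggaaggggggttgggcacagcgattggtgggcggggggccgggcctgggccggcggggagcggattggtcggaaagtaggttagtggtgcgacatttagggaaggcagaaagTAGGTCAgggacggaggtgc
Nfil3: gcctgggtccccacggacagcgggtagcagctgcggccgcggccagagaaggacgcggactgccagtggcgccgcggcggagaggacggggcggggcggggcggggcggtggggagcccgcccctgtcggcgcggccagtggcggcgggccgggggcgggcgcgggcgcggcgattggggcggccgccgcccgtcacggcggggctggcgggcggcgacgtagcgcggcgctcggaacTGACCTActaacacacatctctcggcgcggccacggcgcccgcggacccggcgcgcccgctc
CACGTG was in the windows of 6 clock genes, among them Per1 (chr11:69098699-69098998, plus strand), which was higher at ZT2, and Cry1 (chr10:85185005-85185304, minus strand), Ciart (chr3:95882179-95882478, minus strand, with 3 matches) and Tef (chr15:81802423-81802722, plus strand), which were higher at ZT14. The interval of Ciart included 0. The other genes with a match were Bhlhe41, also higher at ZT14, and Sirt1. Another Per1 window (chr11:69099902-69100201) held no match. Among these genes an E-box in the window thus went with either direction.
Per1: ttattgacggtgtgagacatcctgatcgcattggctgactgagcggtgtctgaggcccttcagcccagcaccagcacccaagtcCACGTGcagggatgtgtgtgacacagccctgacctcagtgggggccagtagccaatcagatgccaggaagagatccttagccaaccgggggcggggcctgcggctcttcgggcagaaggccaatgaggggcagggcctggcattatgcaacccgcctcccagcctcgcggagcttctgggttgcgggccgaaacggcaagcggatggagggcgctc
Cry1: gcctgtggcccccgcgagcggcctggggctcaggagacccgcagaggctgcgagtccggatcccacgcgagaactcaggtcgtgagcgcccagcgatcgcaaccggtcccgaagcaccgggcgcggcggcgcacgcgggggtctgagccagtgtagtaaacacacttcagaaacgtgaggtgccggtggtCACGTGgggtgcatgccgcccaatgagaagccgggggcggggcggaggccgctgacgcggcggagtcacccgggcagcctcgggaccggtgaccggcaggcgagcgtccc
Ciart: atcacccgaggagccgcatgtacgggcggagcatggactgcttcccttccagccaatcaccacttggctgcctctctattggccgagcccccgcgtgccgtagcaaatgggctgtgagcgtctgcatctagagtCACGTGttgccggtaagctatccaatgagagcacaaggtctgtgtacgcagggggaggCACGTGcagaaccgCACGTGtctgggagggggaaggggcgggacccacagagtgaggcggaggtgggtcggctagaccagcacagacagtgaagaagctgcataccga
Tef: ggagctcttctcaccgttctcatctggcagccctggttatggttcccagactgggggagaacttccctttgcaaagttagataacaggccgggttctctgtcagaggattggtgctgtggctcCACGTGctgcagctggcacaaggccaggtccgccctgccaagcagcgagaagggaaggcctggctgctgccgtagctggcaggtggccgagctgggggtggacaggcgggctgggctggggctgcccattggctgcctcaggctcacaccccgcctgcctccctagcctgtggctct
The D-box was in the windows of 2 clock genes as TTATGTAA, Per3 (chr4:151044616-151044915, minus strand), with 2 matches, and Timeless (chr10:128237816-128238115, plus strand), at base 94. Per3 was higher at ZT14, like the D-box activator genes Dbp and Tef, whereas Timeless had 5.77 and 3.73 CPM (0.62), with an interval that included 0.
Per3: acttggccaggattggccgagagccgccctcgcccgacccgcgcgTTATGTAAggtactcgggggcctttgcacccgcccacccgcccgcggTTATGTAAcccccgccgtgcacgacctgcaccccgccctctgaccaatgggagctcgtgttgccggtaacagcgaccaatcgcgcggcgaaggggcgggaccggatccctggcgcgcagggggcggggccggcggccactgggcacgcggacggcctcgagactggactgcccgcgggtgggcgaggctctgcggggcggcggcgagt

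Genes known to respond to glucocorticoids were higher at ZT2. Of the 22 genes listed 21 exceeded 1 CPM, of which 8 were above a log2 ratio of 1 and none below -1, 19 were above 0, and the median was 0.77, against 2.42% above 1 and a median of -0.0028 over all genes. Fkbp5, which encodes a chaperone that restrains the glucocorticoid receptor, had 173 and 46.7 CPM (1.89, interval 1.73 to 2.05). Zbtb16, which encodes the transcription factor PLZF, had 88.4 and 18.5 CPM (2.25, interval 2.02 to 2.51). Their ratios were close to that of the clock gene Nfil3. Ddit4, which encodes an inhibitor of mTORC1, had 37.6 and 18 CPM (1.06). Mt2, a metallothionein gene, had 7.51 and 2.42 CPM (1.60), and Rgcc, a cell cycle regulator gene, had 1.73 and 0.549 CPM (1.50). Pdk4, whose kinase blocks pyruvate entry into mitochondria, had 11.3 CPM at ZT2 and no read at ZT14, and so was at least 34.3-fold higher, taking the limit of 3 reads in that library. With the counting error at ZT2 included, its interval reached down to a log2 ratio of 4.78. The list was not uniform, since Errfi1 (-0.23) and Sesn1 (-0.20) were slightly lower at ZT2, and Mt1, the other metallothionein gene, had 76.2 and 75 CPM (0.02).

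Thbs1, which encodes the matricellular protein thrombospondin-1, a bridge in the uptake of apoptotic cells and an activator of latent TGF-beta, had the highest ratio of any gene above 8 CPM without a near-identical copy. Its level was 1376 CPM in the morning and 73.8 CPM in the evening, an 18.6-fold difference (log2 ratio 4.22, interval 4.11 to 4.33). Of 30 thrombospondin, matricellular and protease genes listed 20 exceeded 1 CPM, and the median was 0.24. Of these 4 were above 1 and 1 below -1, against 2.42% and 1.19% of all genes. Vcan, a proteoglycan gene, had 38.2 and 12 CPM (1.67), Adamts9, a gene for a protease that cuts versican, had 15.7 and 3.3 CPM (2.22), and Sparc, a collagen-binding protein gene, had 4.16 and 0.549 CPM (2.71). The gene below -1 was Mmp8, a collagenase gene of neutrophils, with 0.693 and 1.65 CPM and an interval from -2.90 to 0.20. Other receptors and bridges for apoptotic cells differed less. Of 19 measured genes, Thbs1 was the only one beyond 1 in either direction, and the median was 0.17. Mertk, which encodes a kinase receptor for apoptotic cells, came closest with 188 and 97.7 CPM (0.95, interval 0.83 to 1.07), whereas Stab1, a scavenger receptor gene, had 332 and 528 CPM (-0.67). Lrp1 had 3786 and 4047 CPM (-0.10), and the phosphatidylserine receptor gene Timd4 had 442 and 421 CPM (0.07).

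Genes of fuel use and lipid handling were split between the times. Plin2, which encodes a coat protein of lipid droplets, had 273 and 94.6 CPM (1.53, interval 1.42 to 1.64). Cpt1a, whose product carries fatty acids into mitochondria, had 180 and 88.9 CPM (1.02), and with Pdk4 these 3 genes of the combined LXR and PPAR list were above 1. Some other genes of the same list were higher at ZT14. Abcg1, a cholesterol exporter gene, had 104 and 278 CPM (-1.41, interval -1.52 to -1.30), and Mylip, which encodes a ubiquitin ligase, had 45 and 105 CPM (-1.22). Nr1h3, which encodes LXRalpha itself, had 2.43 and 5.27 CPM (-1.09), Abca1 had 431 and 582 CPM (-0.43) and Apoe 6817 and 8952 CPM (-0.39). In all, 3 of the 19 measured genes of that list were above 1 and 3 below -1, against 2.42% and 1.19% of all genes. The median was -0.01, so the list had no common direction. Scd2, a fatty acid desaturase gene, was also higher in the evening with 47.9 and 139 CPM (-1.54, interval -1.70 to -1.38), while the low-expressed elongase gene Elovl6 had 3 and 1.32 CPM (1.13). None of 23 sterol synthesis and uptake genes passed 1.

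Glycolysis genes had a median of 0.06. Pfkfb3, whose product makes the activator of phosphofructokinase, had 126 and 59.3 CPM (1.08, interval 0.93 to 1.24). It was the only one of 20 measured glycolysis genes beyond 1, near the share of all genes (3.61%). Hk2, a hexokinase gene, had 41.5 and 74.5 CPM (-0.84), and Gapdh had 1076 and 1001 CPM (0.11). Arg2, which encodes mitochondrial arginase, had 9.12 and 4.06 CPM (1.15), and Glul, which encodes glutamine synthetase, had 880 and 532 CPM (0.72).

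The retinoic acid pathway showed one of the largest evening differences outside the clock. Cyp26a1 and Cyp26b1, which encode the enzymes that break down retinoic acid and are known targets of its receptors, had 3.46 and 20.9 CPM (-2.56, interval -3.20 to -2.03) and 1.73 and 14.3 CPM (-2.97, interval -3.92 to -2.27). These were the 2 genes beyond 1 of 11 measured (16 listed), against 3.61% of all genes, and the median was -0.33. The receptor gene Rarg had 72.9 and 136 CPM (-0.90), while Rxra had 166 and 164 CPM (0.02) and Aldh1a2, which encodes a retinoic acid synthesizing enzyme, had 20 and 21.9 CPM (-0.13). Gata6, the retinoic acid dependent factor of resident peritoneal macrophages, had 69.1 and 89 CPM (-0.37). Hence the degrading enzymes differed far more than the receptors, the synthesizing enzyme or Gata6.

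Immediate early genes, which are transcribed within minutes of a stimulus, tended to be higher at ZT14. Of the 25 genes listed 24 were measured, of which 2 were below -1 and none above 1, 22 were below 0, and the median was -0.53. Of the 18 above 10 CPM, 10 were below -0.5 and none above 0.5, against 3.67% and 3.76% of all genes above 10 CPM. Nr4a1, a nuclear receptor gene, had 7.39 and 23 CPM (-1.62), and Egr1, a zinc finger factor gene, had 11.2 and 32.4 CPM (-1.52). Junb had 118 and 230 CPM (-0.97), and Klf2, a factor linked to macrophage quiescence, had 631 and 976 CPM (-0.63). Fos, in contrast, had 18.7 and 21.2 CPM (-0.18), and Fosl2 131 and 111 CPM (0.24). Heat shock genes had the same direction, with 2 of 21 below -1, against 1.19% of all genes, and a median of -0.20. Hspa1a had 3.46 and 12.1 CPM (-1.77) and Hspa1b 3.35 and 13.6 CPM (-1.99), the stress-induced members of the HSP70 family, whose coding sequences are known to be nearly identical so that reads may be shared between them. The constitutive member Hspa8 had 1082 and 1560 CPM (-0.53). Cirbp, the cold-inducible RNA-binding protein gene, stood opposite with 28.9 and 15.2 CPM (0.93). For the unfolded protein response genes the values were 0 of 19 beyond 1 and a range from -0.30 to 0.22.

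Of the cytokine and chemokine genes beyond 1, 9 were higher at ZT14 and 2 at ZT2, and all of them except Cxcl13 were below 20 CPM in both libraries. The abundant members differed less, such as Ccl6 (1093 and 820 CPM, 0.42), Ccl9 (610 and 478 CPM, 0.35) and the cytokine gene Tgfb2 (587 and 772 CPM, -0.39). Of all genes 1.19% were below -1 and 2.42% above 1. Of 24 cytokine and mediator genes listed 13 exceeded 1 CPM, and of these 4 were below -1 and none above 1. Il1a had 4.74 and 16.1 CPM (-1.75, interval -2.31 to -1.26), Tnf 2.54 and 6.48 CPM (-1.32), Il1b 1.73 and 3.95 CPM (-1.15) and Il15 1.04 and 2.42 CPM (-1.14). The intervals of these 4 excluded 0, but none except that of Il1a lay wholly beyond 1. Of 24 chemokine genes listed 15 exceeded 1 CPM, and of these 5 were below -1 and 2 above 1. The neutrophil attractants were among the former, with Cxcl1 at 1.15 and 8.13 CPM (-2.71, interval -3.93 to -1.86), Cxcl2 at 3.81 and 10.9 CPM (-1.49) and Cxcl3 at 0.231 and 2.09 CPM (-2.72). Ccl3 had 0.462 and 1.76 CPM (-1.72). The most abundant chemokine gene beyond 1 was Cxcl13, the B cell attractant made by resident peritoneal macrophages, with 193 and 437 CPM (-1.18, interval -1.26 to -1.10). Ccl5, a T cell attractant gene, was higher at ZT2 with 18 and 6.37 CPM (1.49, interval 1.06 to 1.96), as was the low-expressed Cx3cl1 with 1.96 and 0.22 CPM (2.69). Some receptor and sensor genes were higher at ZT2. Cxcr4, the receptor of CXCL12, had 68.5 and 31.7 CPM (1.11), Nlrp3, the inflammasome sensor, had 41.6 and 19 CPM (1.13), and Tlr8, a sensor of single-stranded RNA, had 75.4 and 42.6 CPM (0.82). Nlrp3 and Il1b, whose precursor protein is cleaved by caspase-1 in the inflammasome, thus had opposite directions. Ccr3, an eosinophil receptor gene, had 5.31 and 1.32 CPM (1.93).

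**Figure D3:**
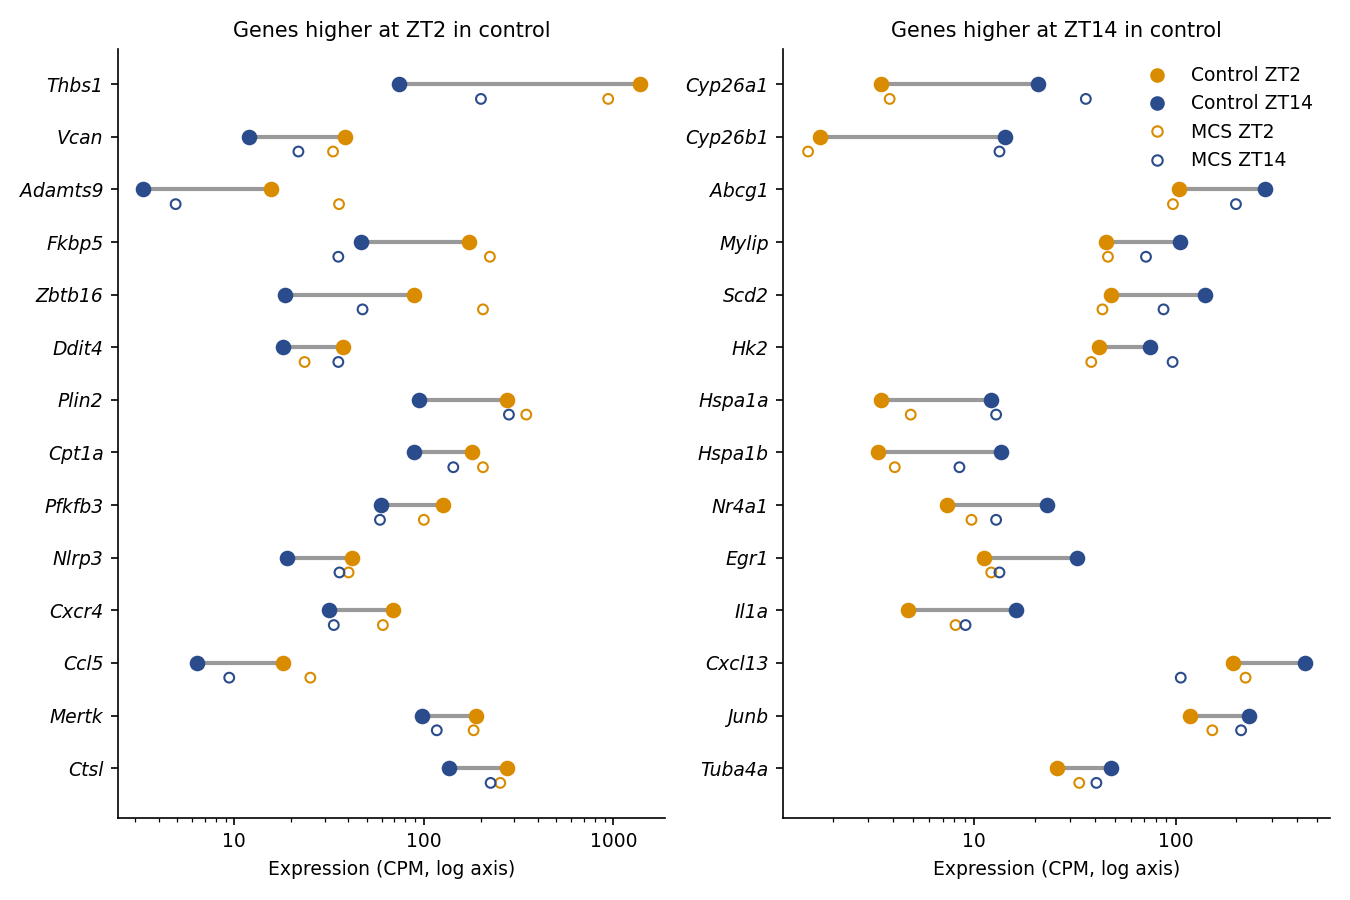
Expression of 28 genes of the programs described (x axis, CPM on a log scale) in the 4 libraries, with genes higher at ZT2 in control on the left and genes higher at ZT14 on the right. Filled points are control and open points MCS, orange ZT2 and blue ZT14, with 1 library per point; the order of the times is the same in both pairs except for Ddit4 on the left and Cxcl13 on the right.

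Interferon-stimulated genes were slightly higher at ZT2. Of 28 measured genes 24 were above 0, against 49.5% of all genes, and the median was 0.39. Of the 28, 2 were above 1, against 2.42% of all genes. These were Ifit3 with 2.19 and 0.659 CPM (1.60) and Ifit2 with 2.66 and 1.1 CPM (1.20), both at few reads. Irf7, the factor that amplifies interferon production, had 45.5 and 26.8 CPM (0.76). Antigen presentation differed little. None of 12 MHC class II genes and none of 17 MHC class I genes passed 1, with medians of 0.10 and 0.12, and the most abundant class II gene Cd74 had 2142 and 2007 CPM (0.09).

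The genes that define the sorted cells were present in both libraries and mostly flat. Of 12 macrophage lineage markers none passed 1, and the median was -0.00. Adgre1, which encodes F4/80, had 1327 and 1361 CPM (-0.04), and Itgam, which encodes CD11b, had 5162 and 4214 CPM (0.29). Csf1r had 1066 and 1156 CPM (-0.12). Of 27 measured large peritoneal macrophage genes, Cxcl13 alone passed 1, near the share of all genes (3.61%). Prg4 had 3388 and 3595 CPM (-0.09), Selp 938 and 714 CPM (0.39) and Serpinb2, a protease inhibitor gene, 439 and 243 CPM (0.85). Small peritoneal macrophage and monocyte genes had a median of 0.21 and 1 of 18 above 1, against 2.42% of all genes. Ly6c2 had 3.12 and 0.879 CPM (1.72), Mrc1, which encodes the mannose receptor, 159 and 97.3 CPM (0.71), and Retnla 385 and 322 CPM (0.26), whereas Irf4 was lower at ZT2 with 108 and 144 CPM (-0.42). The scavenger receptor gene Cd163 had 48.2 and 27.4 CPM (0.81), and Scarb1 had 25.4 and 39.9 CPM (-0.65).

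Structural genes separated by type. Alpha and beta tubulin genes were higher at ZT14 in 10 of 12 measured, with a median of -0.43, and 4 of the 8 above 10 CPM were below -0.5, against 3.67% of all genes at that level. Tuba4a had 25.8 and 47.8 CPM (-0.89), Tubb6 106 and 184 CPM (-0.80), and the most abundant, Tubb5, 380 and 519 CPM (-0.45). Actin cytoskeleton genes did not share this, with 0 of 32 beyond 1 and a median of 0.05. Actb had 8317 and 7917 CPM (0.07), and Rhoc was the lowest with 38.9 and 60.5 CPM (-0.64). Among 15 integrin genes, Itga1 (5.66 and 1.87 CPM, 1.55) and Itga2 (7.28 and 2.53 CPM, 1.49), which encode collagen receptors, were above 1. The share above 1 over all genes was 2.42%.

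Mitosis genes were higher at ZT2, and most S phase and histone genes had the same direction. All 22 measured mitosis genes were above 0, 10 of them above 1, and the median was 0.93. Of all genes 49.5% were above 0 and 2.42% above 1. Only 2 of the 22 exceeded 10 CPM. Above 8 CPM, 84 of 9184 genes were above 1, against 302 of all 12465. Top2a, which encodes the topoisomerase of dividing cells, had 29.9 and 12.9 CPM (1.21, interval 0.90 to 1.55), Tpx2 9.59 and 2.86 CPM (1.71), Bub1b 5.2 and 1.43 CPM (1.79) and Cdk1 3.46 and 1.21 CPM (1.45). S phase genes had a median of 0.30, with 19 of 21 above 0 and 3 above 1, including Rrm2, the ribonucleotide reductase gene, with 5.77 and 2.2 CPM (1.35). Of 72 histone genes 65 were above 0, 10 were above 1 and 1 was below -1, with a median of 0.48. Hist1h3b had 10.2 and 2.86 CPM (1.80) and Hist1h1b 11.7 and 4.17 CPM (1.46). Many histone genes are near-identical in sequence, and summing Hist1h3b with its copies gave 73 and 37.6 CPM (0.96). Cell cycle control genes were split, with 8 of 17 above 0, 2 above 1 and a median of -0.00. Among them Wee1, which encodes the kinase that holds cells before mitosis and is a known clock target, had 35 and 10.4 CPM (1.74). In the MCS pair, in contrast, the mitosis genes had a median of -0.06 with 10 of 22 above 0, and the difference between the pairs was not tested.

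Housekeeping programs had small median ratios. None of 78 ribosomal protein, 16 vacuolar proton pump, 19 autophagy or 38 proteasome genes and 1 of 33 lysosomal genes passed 1. Their medians lay between -0.05 and 0.09. Of all genes 3.61% passed 1. The lysosomal gene was Ctsl, which encodes cathepsin L, with 276 and 135 CPM (1.02, interval 0.92 to 1.13). Of 76 oxidative phosphorylation genes Ndufs5 alone passed 1, with 5.31 and 13.3 CPM (-1.31), but together with its near-identical copy BC002163 it had 13.9 and 13.7 CPM (0.01). Of the same 76 genes 57 were above 0, with a median of 0.13, against 49.5% of all genes above 0. Of the 38 proteasome genes 27 were above 0. In MCS both lists went the other way, with 65 of 76 and 35 of 38 below 0, and the difference was not tested. Complement and Fc receptor genes had 0 of 21 and 0 of 8 beyond 1.

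**Figure D4:**
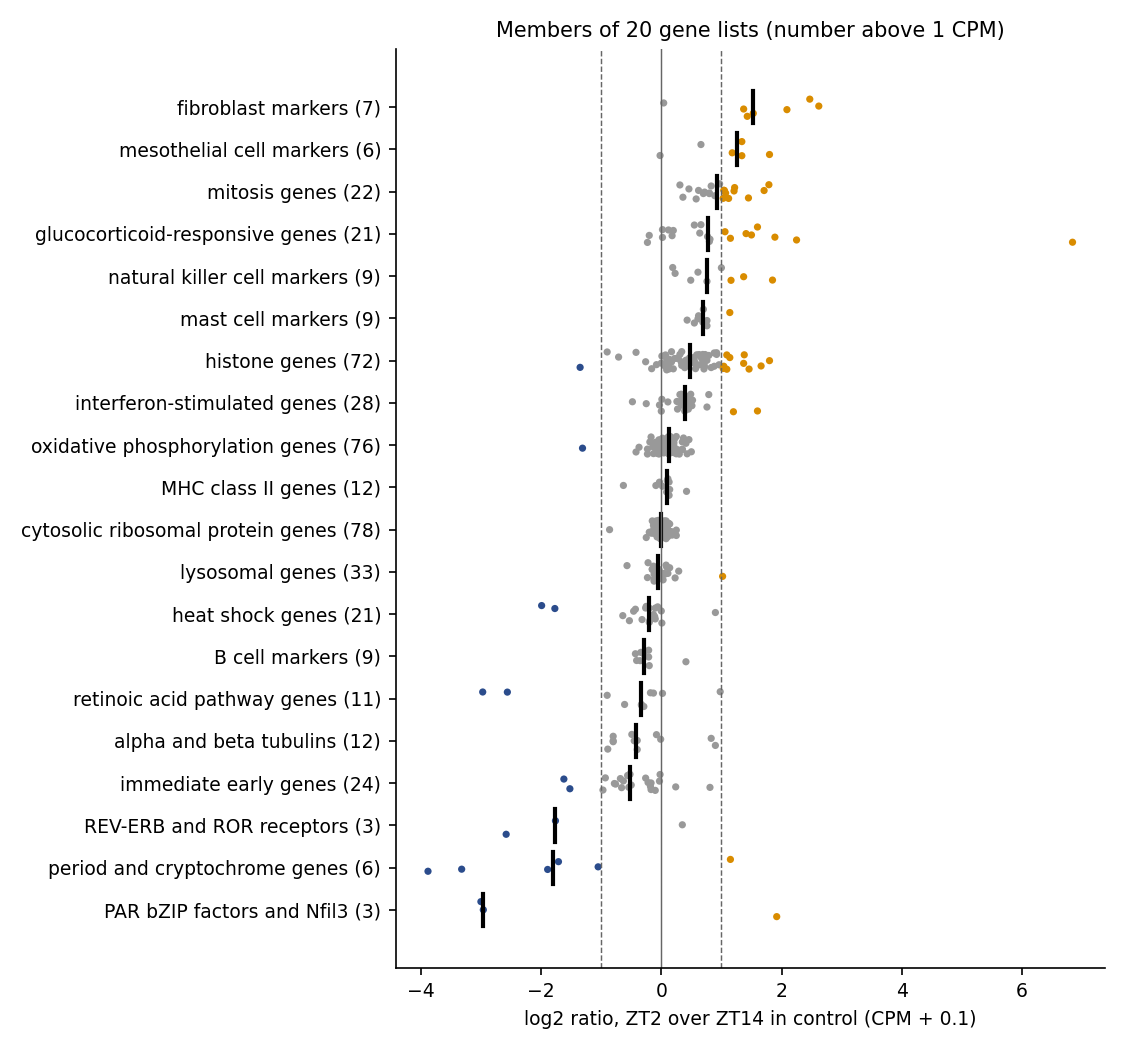
Log2 ratio of ZT2 to ZT14 in control (x axis, CPM + 0.1) for the measured members of 20 gene lists (y axis, with the number of members), ordered by median (black bar). Orange points are above 1, blue points below -1 and grey points between; the medians of the period and cryptochrome, REV-ERB and ROR, PAR bZIP, immediate early and tubulin lists lie to the left of 0, with Per1 and Nfil3 to the right, ribosomal protein genes lie around 0, and mitosis genes and glucocorticoid-responsive genes to the right.

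Markers of other cell types were present in the sorted libraries and several differed between the control libraries. Of all genes 49.5% were above 0 and 2.42% above 1. All 9 natural killer cell markers were above 0 (4 above 1, median 0.76), with sums of 48.4 and 28.3 CPM, and Ncr1 had 7.28 and 2.75 CPM. All 9 mast cell markers were above 0 (median 0.69), with sums of 1964 and 1256 CPM, and Cpa3 had 462 and 316 CPM. Of 7 fibroblast markers 6 were above 1, with sums of 92 and 74.8 CPM, of which Pi16 made up 69.9 and 68 CPM, and Col3a1 had 2.89 and 0.439 CPM. Of 6 mesothelial markers 4 were above 1, with sums of 18.1 and 8.57 CPM. B cell markers went the other way, with 8 of 9 below 0, a median of -0.29 and sums of 1360 and 1663 CPM, and Cd79a had 321 and 369 CPM. Of the 8 neutrophil markers measured, 5 were above 0 and 3 below, with sums of 178 and 227 CPM, of which Csf3r made up 143 and 193 CPM. S100a8 (5.89 and 5.16 CPM) and S100a9 (6.7 and 9.23 CPM) were low in both libraries. T cell markers summed to 184 and 183 CPM, yet 7 of the 8 measured were above 0 (1 above 1, median 0.44). Dendritic cell markers summed to 68.9 and 56 CPM, endothelial markers to 61.2 and 70.1 CPM and platelet markers to 16.4 and 9.67 CPM. Eosinophil markers summed to 4073 and 3763 CPM, nearly all of it from Alox15, which large peritoneal macrophages also express. Red blood cell markers summed to 3.23 and 1.32 CPM, and none exceeded 1 CPM in the mean. Of the markers listed in the table, Pdgfra, Hba-a2, Hbb-b2 and Hbb-bt had no read in either control library. The natural killer, mast, fibroblast and mesothelial cell markers, and most T cell markers, were thus higher at ZT2. Vcan, Sparc, Itga1, Itga2, Ccl5 and the mitosis genes were higher in the same library, and the part of other cells in those results was not tested.

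Several of the most extreme ratios belonged to genes with near-identical copies. By rule, the 15 highest and 15 lowest ratios above 8 CPM were examined, and each was compared by sequence with the other transcripts. Gm18853 had 0 and 96.4 CPM and Gm17757 126 and 20.8 CPM, and their sum was 126 and 117 CPM (0.11). Gm14308 (9.01 and 32.6 CPM), Gm4724 (9.01 and 32.5 CPM), Gm14434 (20.1 and 0 CPM) and 0610010B08Rik (42.5 and 12.5 CPM) belong to one group of zinc finger gene copies. With all copies of Gm14434 the sum was 178 and 180 CPM (-0.02). Gm6644 had 40.9 and 0 CPM, and with its parent gene Akr1b3 the sum was 81.7 and 78 CPM (0.07). How reads are shared among such copies is uncertain, and these 7 of the 30 genes showed no difference once summed. The rest of the 15 highest, beyond Thbs1, Zbtb16, Adamts9, Nfil3, Fkbp5 and Wee1, were Nipal1 (21.6 and 3.41 CPM, 2.63), a magnesium transporter family gene, Hgf (28.5 and 6.48 CPM, 2.12), which encodes hepatocyte growth factor, Klf11 (26.3 and 6.48 CPM, 2.01), the transcript 1700071M16Rik and Il7r (24.7 and 7.25 CPM, 1.76), which encodes the interleukin-7 receptor. Of the 15 lowest, Cdc42ep2, an effector gene of the GTPase CDC42, had 7.28 and 29 CPM (-1.98, interval -2.42 to -1.59), and the others were clock, retinoic acid, heat shock and Il1a genes given above.

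The same contrast could be read in the MCS pair, which shares no library with the control pair but is not a replicate, since its mice received current. Of the 302 genes above 1 in control 243 were above 0 in MCS and 99 above 1, while 7 were below -1. Of the 148 below -1 in control 90 were below 0 in MCS and 35 below -1, while 16 were above 1. The share of all genes on either side of 0 in MCS is not given here, so these counts have no baseline. Above 8 CPM, 77 of 84 and 46 of 55 had the same sign, likewise without a baseline. The MCS ratios were smaller for 68 of the 84 and 48 of the 55, with the genes having been chosen for a large ratio in control. Per2 had 9.74 and 46.7 CPM (-2.25), Tef 15.7 and 82.7 CPM (-2.39), Nr1d1 4.52 and 8.38 CPM (-0.88) and Nfil3 45.5 and 34.3 CPM (0.41). Per1 had 118 and 79.8 CPM (0.56) and Arntl 33.6 and 19 CPM (0.82). Some genes had larger ratios in MCS, among them Fkbp5 with 223 and 35.4 CPM (2.65), Adamts9 with 35.7 and 4.91 CPM (2.84) and Cyp26a1 with 3.83 and 35.9 CPM (-3.20), and Zbtb16 was close to its control ratio with 205 and 47.5 CPM (2.10). The glucocorticoid-responsive list as a whole did not follow Fkbp5, since its median was 0.33 in MCS against 0.77 in control and 8 of 21 genes were below 0 in MCS, among them Ddit4 with 23.5 and 35.4 CPM (-0.59). Thbs1 had 938 and 200 CPM (2.23). Against this, Egr1 (12.2 and 13.4 CPM, -0.14), Il1a (8.12 and 9.1 CPM, -0.16) and Cxcl1 (3.48 and 3.68 CPM, -0.08) were nearly level in MCS, and the median of the immediate early genes was -0.03. Whether these effects differ between control and MCS was not tested.

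**Figure D5:**
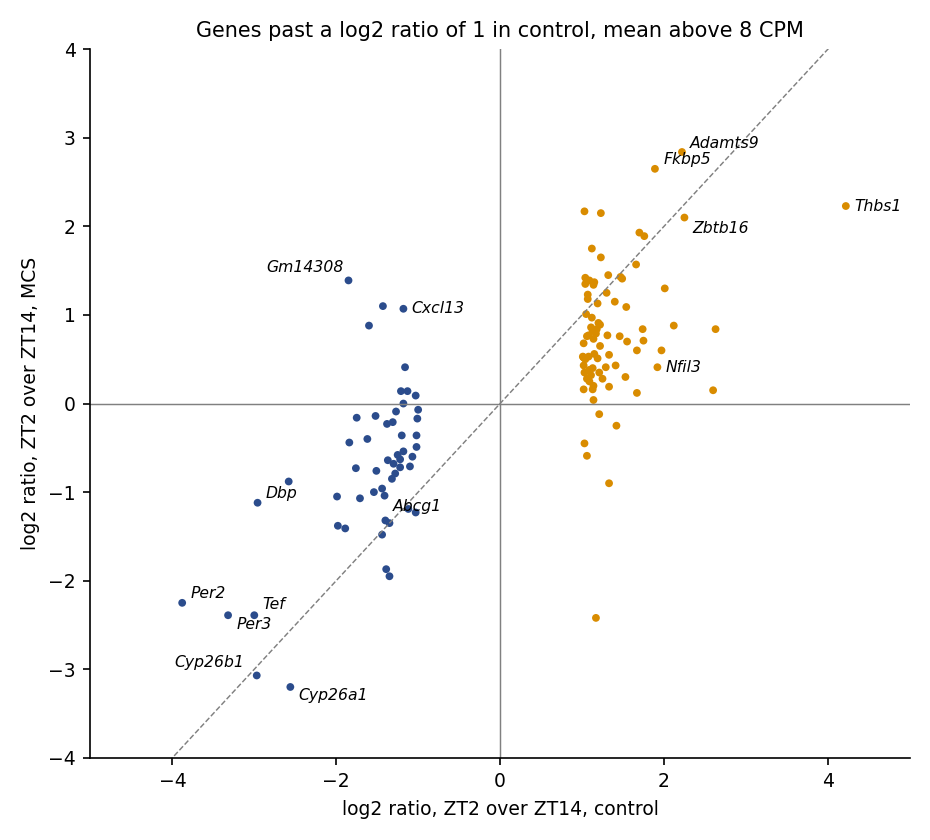
Log2 ratio of ZT2 to ZT14 in MCS (y axis) against that in control (x axis) for the 139 genes above 8 CPM and beyond 1 in control, orange where higher at ZT2 in control and blue where higher at ZT14. The dashed line marks equal ratios; most points lie on the same side of 0 in both pairs and nearer to 0 in MCS, Cxcl13 and Gm14308 lie on opposite sides, and 3 genes with near-identical copies (Gm14434, Gm18853, Gm6644) lie beyond the axes.

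All values of the 4 libraries were whole multiples of 1 read (100% within 0.01 read), which allowed a count test of time over control and MCS together. edgeR's quasi-likelihood test with additive terms for time and MCS called 295 of 12404 genes (2.38%) at a Benjamini-Hochberg adjusted p below 0.05, comprising 179 higher at ZT2 and 116 higher at ZT14. It assumes that the difference between times is the same with and without current and rests on 1 residual degree of freedom. The MCS pair stands in for replicates here, and the control libraries by which genes were named are part of the test. Its p-values are therefore no independent support for those genes, and its time term also holds time since the procedure. It called 5 of 5 tested period and cryptochrome genes, with adjusted p of 6e-11 for Per2, 4.25e-11 for Per3, 0.00013 for Cry1, 1.33e-05 for Cry2 and 0.00181 for Per1, the last in the opposite direction. Arntl (0.00308), Nr1d1 (0.000141), Nr1d2 (7.78e-05), Dbp (7.78e-05), Tef (1.28e-12), Nfil3 (0.00136) and Bhlhe40 (0.00021) were called, and Clock (0.978) and Bhlhe41 (0.666) were not. Of 21 glucocorticoid-responsive genes tested 7 were called, all higher at ZT2, with adjusted p of 4.65e-11 for Fkbp5 and 2.81e-11 for Zbtb16. Thbs1 (1.23e-10), Adamts9 (2.76e-09), Cyp26a1 (1.64e-10), Cyp26b1 (1.08e-08), Abcg1 (1.59e-05), Scd2 (7.11e-06), Plin2 (0.00754), Cpt1a (0.00657), Pfkfb3 (0.000416), Hk2 (9.61e-05), Hspa1a (0.000255), Ccl5 (6.53e-05), Cxcr4 (0.00038) and Tlr8 (0.00177) were also called. DESeq2 with the same design called 81 genes in all, and of the genes named in this paragraph it did not call Arntl (adjusted p = 0.166), Nr1d1 (0.0558), Nfil3, Plin2, Cpt1a (0.0645), Hspa1a (0.0992) and Tlr8 (0.068), while it called 5 of 5 period and cryptochrome genes and 3 of the 21 glucocorticoid-responsive genes.

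The same edgeR test called fewer genes of the other programs. None of the 22 mitosis genes passed, with an adjusted p of 0.387 for Top2a, although 7 had an unadjusted p below 0.05, and DESeq2 called 0. None of the 28 interferon-stimulated genes passed (5 at an unadjusted p below 0.05, 0 by DESeq2), and none of the 13 cytokine genes (2 and 0), with 0.0859 for Il1a and 0.326 for Tnf. Of 24 immediate early genes Nr4a1 (0.0185) and Junb (0.0176) were called, and Egr1 (0.0649) was not, and DESeq2 called none of the list. Of 12 tubulin genes 4 were called (2 by DESeq2), all higher at ZT14, among them Tuba1c with 68.1 and 119 CPM in control and 56 and 150 CPM in MCS (7.78e-05). Markers of other cells were called as well, with 6 of 9 mast cell markers, 5 of 9 natural killer cell markers and 5 of 9 neutrophil markers, all higher at ZT2, such as Hdc (4.86e-06) and Ncr1 (0.00469). DESeq2 called the same number of mast cell markers, 6, but 0 natural killer cell and 0 neutrophil markers. The red blood cell markers Hba-a2 and Hbb-b1 were called higher at ZT14 by edgeR and not by DESeq2, and Hba-a2 had no read in the control pair but 0 and 49.5 CPM in MCS. The neutrophil markers had a median of 0.13 in control, with sums of 178 and 227 CPM. In MCS their median was 2.51, with sums of 332 and 183 CPM. The direction was not shared by both pairs for S100a9, which had 6.7 and 9.23 CPM in control and 33.5 and 1.23 CPM in MCS.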

How the data were processed

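The authors sorted peritoneal macrophages, prepared directional libraries after rRNA depletion and deposited CPM for 15298 gene symbols, with no missing values. Per the labels, mm10, Trimmomatic 0.38, RSEM 1.3.0, Bowtie2 and edgeR were used, while the annotation version and any expression filter are not given in the sources used here. The labels and the study's methods name different RNA extraction kits. The deposited CPM were whole multiples of 1 read in every library, and dividing by that step gave the reads and effective library sizes, which equal read totals times edgeR's TMM factors. RSEM estimates need not be whole, so any rounding by the authors remains in these reads.

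Log2 ratios used a pseudocount of 0.1 CPM, a minimum mean of 1 CPM and thresholds of 1, or of 0.5 above 10 CPM. Intervals were exact conditional binomial (Clopper-Pearson) intervals at 95% on the reads. No column went unused. Members of 65 lists with 1215 genes, of which 1056 were above 1 CPM, are described by counts and medians. The gene set and the lists were chosen with earlier results of these data known, so none is independent support. Named were, by rule, every clock gene, in each list up to 6 members beyond 1 (or, where fewer than 2 passed, the highest, lowest and most abundant), the 15 highest and 15 lowest ratios above 8 CPM, the 5 most abundant genes and markers of other cells. The following genes were named outside this rule, after their values were seen: Errfi1, Sesn1, Mt1, Timd4, Abca1, Apoe, Rarg, Rxra, Aldh1a2, Gata6, Junb, Klf2, Fos, Fosl2, Hspa8, Cxcl2, Irf7, Prg4, Selp, Tubb6, Tuba1c, Pdgfra, Hba-a2, Hbb-b2, Hbb-bt, Hbb-b1, Ccl6, Ccl9 and Tgfb2. A few genes that the rule names are not reported here.

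Near-identical copies were sought with blastn 2.17.0 among GENCODE M21 transcripts (at least 95% identity over 80% of the shorter transcript and 300 bases), and promoters were read from RefSeq windows. The count test, added as an alternative since there was 1 library per group, used edgeR 4.0.16 on genes with at least 40 reads, and DESeq2 1.42.0 served as a further alternative (R 4.3.3). Both, and the ratios, were tested on simulated data. The rest was done in Python 3.11.15 (scipy 1.17.1, numpy 2.4.6, matplotlib 3.10.9, pandas 2.3.3).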

Additional observations from a re-analysis of the deposited data

Results flagged for a closer look

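For 6 named genes the ratio of ZT2 to ZT14 lay beyond 1 in one direction in control and beyond 1 in the other direction in MCS, each with 1 library per time, and the difference was not tested. Cxcl13 had 193 and 437 CPM in control (-1.18) and 222 and 106 CPM in MCS (1.07). Il1b had 1.73 and 3.95 CPM in control (-1.15) and 7.08 and 2.15 CPM in MCS (1.68). Ccr3 had 5.31 and 1.32 CPM in control (1.93) and 12.2 and 33.8 CPM in MCS (-1.47). Mmp8 had 0.693 and 1.65 CPM in control (-1.14) and 5.1 and 0.716 CPM in MCS (2.67). Gm14308 had 9.01 and 32.6 CPM in control (-1.85) and 27.5 and 10.4 CPM in MCS (1.39), and Gm6644 had 40.9 and 0 CPM in control (8.68) and 1.51 and 64 CPM in MCS (-5.32), both genes with near-identical copies.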

How the results depend on the processing

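No paired analysis was possible because no group has replicates that a number could pair, and for the same reason no replicate could be left out. The edgeR fit did set ZT2 against ZT14 within each treatment through its additive terms. The count of genes beyond 1 (450) was 229 with a pseudocount of 1 CPM, 1567 with no minimum, 139 above 8 CPM and 103 where the whole counting interval had to lie beyond 1. In the same order the genes of the fixed lists (106) numbered 70, 145, 45 and 41, and the genes with the same sign in MCS (333) numbered 181, 1019, 123 and 85. The count beyond 0.5 above 10 CPM (642) was 3765 with no minimum and 273 by the whole interval. A pseudocount of 0.01 CPM, rescaling to a median of 0, TMM factors, CPM without Rn45s and, chosen after seeing the data, CPM from total reads moved none of these counts by over 1.5 times. The share of genes beyond 0.5 that were higher at ZT2 was 50.6% and was 61% with no minimum. DESeq2 called 81 genes (430 at an unadjusted p below 0.05) where edgeR called 295 (1287 at an unadjusted p below 0.05), and edgeR without the read filter called 380. No scaling or pseudocount reversed a named gene, while summing near-identical copies gave 0.11 for Gm18853, -0.02 for Gm14434 and 0.01 for Ndufs5. Of 64 list medians, 9 took the other sign under some setting, none larger than 0.21 in size.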
